A study of Homo sapiens with 24 samples.

Results

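Aminoacyl-tRNA synthetases join each amino acid to its tRNA and so supply the ribosome with charged tRNA. Most amino acids have a cytosolic and a mitochondrial enzyme encoded by separate genes, whereas GARS1 and KARS1 each encode both forms. Several cytosolic enzymes are held with the scaffold proteins AIMP1, AIMP2 and EEF1E1 in a multi-synthetase complex. The transcription factor ATF4, whose translation rises when amino acids are short, activates many cytosolic synthetase genes, and MYC promotes the genes of protein synthesis in growing cells. The 34 listed genes were 19 cytosolic synthetases, 12 mitochondrial synthetases and the 3 scaffolds. They were listed by name, with earlier results of these data known. Of these, 29 of the 34 had a probe set with a single gene symbol, out of 12165 such genes on the arrays: 18 cytosolic, 10 mitochondrial and AIMP1. FARSB, AARS2, VARS2, AIMP2 and EEF1E1 were not analysed here. The probe set with the highest mean intensity stood for a gene.

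RNA came from 4 established human acute myeloid leukemia (AML) lines. These were MOLM-14, which is monocytic and carries both MLL-AF9 and a FLT3 internal tandem duplication, U937, also monocytic, HL-60, promyelocytic, and KG-1, from early myeloblasts. Each line was grown for 24 h with 4 µM R406 or with dimethyl sulfoxide (DMSO) as vehicle, giving 8 groups of 3 arrays. R406, the active form of fostamatinib, inhibits the kinase SYK and several other kinases. The study's title concerns integrin beta 3 signalling in leukemia, and the arrays show which transcripts differed with the inhibitor. The dose follows the treatment protocol, in µM, while the design text has mM.

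Values are probe set intensities on a linear scale, normalised by the authors, from 3.41 to 12686 with array medians of 19.1 to 21.4. Each fold change is the R406 mean minus the DMSO mean of log2(intensity + 1), given ± SE from a limma fit over all 24 arrays. For dim genes this scale understates the change. Genes were called at an adjusted p under 0.05 (Benjamini-Hochberg over all 12165 genes), and "lower", "fell", "higher" and "rose" are used of such calls. Nothing in the labels tells if the arrays of a group stem from separate cultures. The p-values therefore cover only array-to-array spread, which may be technical. R406 arrays all lay below DMSO arrays for 26.1% of genes in MOLM-14, 15.8% in U937, 16.9% in HL-60 and 23.2% in KG-1. They all lay above for 31.6%, 18.2%, 15.9% and 26.6% in the same order. KG-1 R406 replicate 2 stood furthest from its group, with a mean correlation of 0.99384 to the other 2 arrays and an estimated array weight of 0.22, the lowest of the 24. In bulk RNA, fewer cells of a type and less RNA per cell cannot be told apart. PTPRC, the leukocyte antigen CD45, had mean DMSO intensities of 444 to 1033 in the 4 lines. The progenitor antigen CD34 was at 613 ± 103 in KG-1, and the granule enzyme MPO at 6416 ± 114 in HL-60 (SD, n = 3 each, DMSO). The monocyte receptor CD14 was at 7.20 ± 0.396 in MOLM-14 and 7.40 ± 1.17 in U937 under DMSO (n = 3 each), near the lowest values on the arrays, so this monocyte marker gave no clear signal in either monocytic line. The erythroid and B cell marker lists summed to at most 54.1 and 37.5 on any array.

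In MOLM-14, R406 was accompanied by lower transcripts of most cytosolic synthetases. Of the 18 measured, 16 fell and 1 rose, with a median log2 fold change of -1.13, against 0.068 over all genes. Among all genes, 25.0% were called lower and 31.1% higher in this line (56.2% in either direction). The largest fall of a chosen probe set was that of VARS1, which charges tRNA with valine. Its intensities were 41.0, 39.3 and 34.9 on the R406 arrays, against 205, 190.1 and 214 on the DMSO arrays. The groups were far apart, and the log2 fold change was -2.37 ± 0.11 (limma adjusted p = 1.28e-14). The gene's dimmer probe set gave -0.55 in MOLM-14 and -0.57 in KG-1, both called lower. With the probe sets of each gene averaged, VARS1 was at -1.46 in MOLM-14, behind FARSA (-1.76), IARS1 (-1.74) and GARS1 (-1.71), and at -1.28 in KG-1. FARSA, the alpha subunit of the phenylalanine enzyme, read 143, 140.0 and 117 on the R406 arrays, against 489.7, 507 and 484 on the DMSO arrays. Every R406 array was below every DMSO array, with a change of -1.89 ± 0.075 (limma adjusted p = 1.73e-15). The isoleucine enzyme gene IARS1 gave 826, 733 and 791 on the R406 arrays, against 2521, 2752 and 2589 on the DMSO arrays, a change of -1.74 ± 0.056 (limma adjusted p = 4.53e-17).

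The glycine enzyme gene GARS1 had intensities of 595, 605 and 580.0 on the R406 arrays, against 1915, 1938 and 1992 on the DMSO arrays in MOLM-14. The change of -1.71 ± 0.085 left no overlap between the groups (limma adjusted p = 6.60e-14). WARS1, which charges tRNA with tryptophan and is known as an interferon-induced gene, was at 231, 252 and 252 on the R406 arrays, against 657, 676 and 688 on the DMSO arrays, a change of -1.46 ± 0.082. The alanine, tyrosine, arginine, methionine, leucine and histidine enzyme genes AARS1, YARS1, RARS1, MARS1, LARS1 and HARS1 changed by -1.43 to -1.09. NARS1, EPRS1, KARS1, TARS1 and SARS1, for asparagine, glutamate with proline, lysine, threonine and serine, also fell, with log2 fold changes of -0.60 to -0.31. SARS1 read 365, 308 and 354 on the R406 arrays, against 399.8, 444 and 428 on the DMSO arrays. The cysteine enzyme gene CARS1 did not pass the test (-0.057 ± 0.077, limma adjusted p = 0.558), and its dimmer probe set gave -0.36, which did (limma adjusted p = 1.92e-04).

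QARS1, the glutamine enzyme, was the cytosolic gene that rose. Its intensities in MOLM-14 were 2974, 2979 and 2917 on the R406 arrays, against 2028, 1974 and 1888 on the DMSO arrays. All 3 R406 arrays lay above all 3 DMSO arrays, with a change of 0.59 ± 0.050 (limma adjusted p = 6.84e-10). In KG-1 it was at 2114, 2064 and 2128 on the R406 arrays, against 1588, 1564 and 1557 on the DMSO arrays. There too the R406 arrays were the higher ones, by 0.42 ± 0.050 (limma adjusted p = 2.63e-07). QARS1 did not pass the test in U937 (0.071 ± 0.050) or HL-60 (-0.057 ± 0.050). It was the only cytosolic synthetase called higher in any line in this fit.

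**Figure D1:**
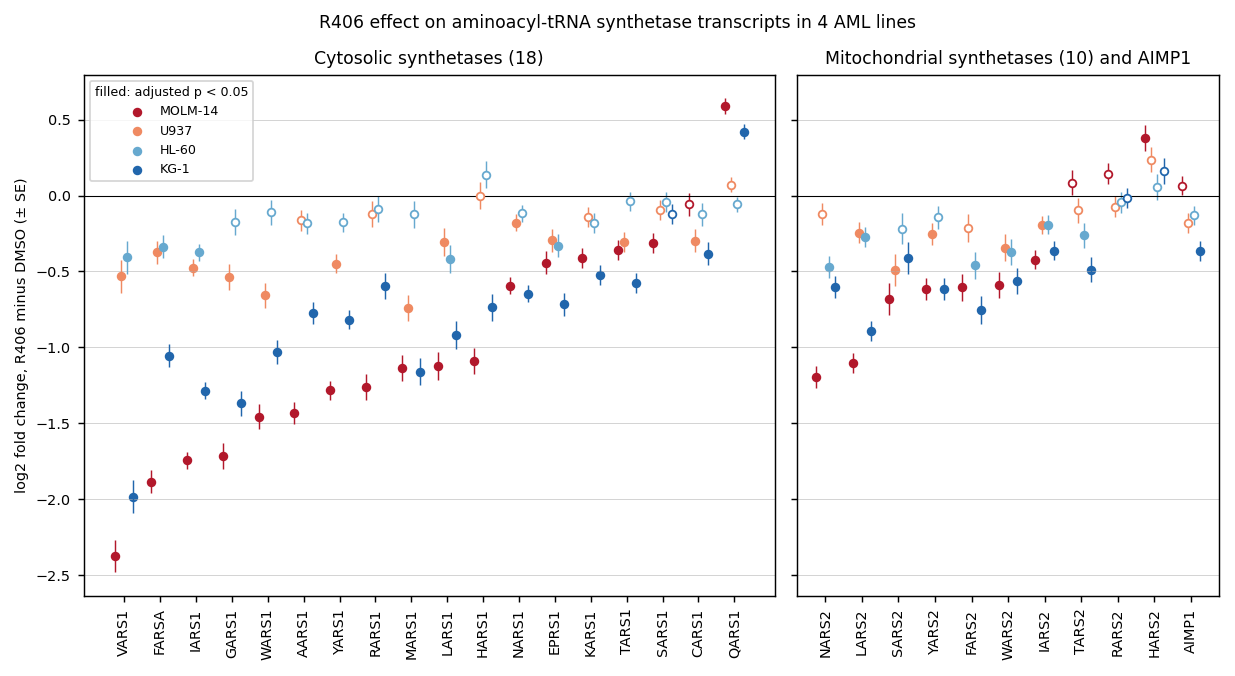
Log2 fold change of each measured gene, R406 minus DMSO in log2(intensity + 1), in the 4 lines, with bars for the SE from the limma fit over 24 arrays. Filled points passed an adjusted p of 0.05 and open points did not. The MOLM-14 and KG-1 points of most cytosolic genes lie below those of U937 and HL-60, while QARS1 and HARS2 lie above 0 in MOLM-14.

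In KG-1 too, most cytosolic synthetases fell. Of 18 cytosolic synthetases, 16 fell and 1 rose (median -0.76, against 0.020 over all genes), where 20.9% of all genes were called lower and 23.6% higher (44.5% in either direction). VARS1 had intensities of 15.7, 25.0 and 20.5 on the R406 arrays, against 83.4, 88.2 and 75.7 on the DMSO arrays. The R406 arrays lay near the array medians, and the change was -1.98 ± 0.11 (limma adjusted p = 9.93e-13). GARS1 read 751, 560.3 and 750.2 on the R406 arrays, against 1687, 1828 and 1769 on the DMSO arrays, with replicate 2 the lowest of the R406 arrays and a change of -1.37 ± 0.085. IARS1 was at 1220.0, 1154 and 1229 on the R406 arrays, against 2935, 2951 and 2903 on the DMSO arrays, a change of -1.29 ± 0.056 (limma adjusted p = 3.44e-14). These groups did not come near each other. The methionine enzyme gene MARS1 was at 146, 189 and 174 on the R406 arrays, against 376, 395 and 364 on the DMSO arrays, a change of -1.16 ± 0.087, and FARSA at 171, 159 and 176 on the R406 arrays, against 340.3, 339 and 374 on the DMSO arrays, a change of -1.05 ± 0.075. CARS1, which had not passed in MOLM-14, fell by 0.38 in KG-1 (limma adjusted p = 2.31e-04), and SARS1 did not pass (-0.12 ± 0.066). Without R406 replicate 2 the counts in KG-1 were again 16 lower and 1 higher.

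In U937, 12 of the 18 cytosolic synthetases fell and 0 rose by limma (0 were higher and 14 lower at an unadjusted p under 0.05), with a median of -0.30, against 0.0027 over all genes. Among all genes 5.43% were called lower and 6.12% higher. MARS1 had intensities of 371, 410.4 and 421 on the R406 arrays, against 704, 664 and 645 on the DMSO arrays. That was the largest fall of a chosen probe set in this line, -0.74 ± 0.087 (limma adjusted p = 5.87e-06). Of the gene's other probe sets, the brighter was also called lower in U937 (-0.72) and KG-1 (-1.07), and a dim one, at -0.16 and -0.17, was not called. WARS1 was at 272, 275 and 269.8 on the R406 arrays, against 417, 435 and 438 on the DMSO arrays, a change of -0.66 ± 0.082 (limma adjusted p = 1.21e-05). GARS1 and VARS1 changed by -0.53 ± 0.085 and -0.53 ± 0.11, also with no overlap of their arrays. GARS1 read 1591, 1567 and 1603 on the R406 arrays, against 2221, 2400.1 and 2280.2 on the DMSO arrays. VARS1 read 116, 117 and 108 on the R406 arrays, against 178, 156 and 161 on the DMSO arrays. The smallest call was NARS1 (-0.18 ± 0.056, limma adjusted p = 0.0404), which lost its call whichever array of U937 was left out. AARS1, HARS1, KARS1, QARS1, RARS1 and SARS1 did not pass the test, and HARS1 was at 335 ± 13.1 with R406 and 336 ± 34.1 with DMSO (SD, n = 3 each).

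HL-60 had the fewest calls. Of 18 cytosolic synthetases 5 fell and 0 rose by limma (0 were higher and 8 lower at an unadjusted p under 0.05; median -0.15, against -0.0029 over all genes), where 7.97% of all genes were called lower and 7.19% higher. Those that fell were LARS1, VARS1, IARS1, FARSA and EPRS1. LARS1, for leucine, had intensities of 265, 251 and 262 on the R406 arrays, against 333, 347 and 363 on the DMSO arrays. The arrays did not overlap, and the change was -0.42 ± 0.091 (limma adjusted p = 0.00227). VARS1 was at 112, 117 and 116 on the R406 arrays, against 155, 154 and 149.7 on the DMSO arrays, a change of -0.41 ± 0.11 (limma adjusted p = 0.0107), and its call ended when the gene's probe sets were averaged (-0.25). IARS1 gave 1482, 1462 and 1494 on the R406 arrays, against 1904, 1929 and 1911 on the DMSO arrays, a change of -0.37 ± 0.056. FARSA changed by -0.34 ± 0.075 and EPRS1 by -0.33 ± 0.077. GARS1, MARS1 and WARS1, among the largest falls elsewhere, were at -0.18, -0.12 and -0.11 here and did not pass. The count of cytosolic genes called lower was 8 when KG-1 R406 replicate 2 was left out of the shared fit, with AARS1, GARS1 and YARS1 added.

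**Figure D2:**
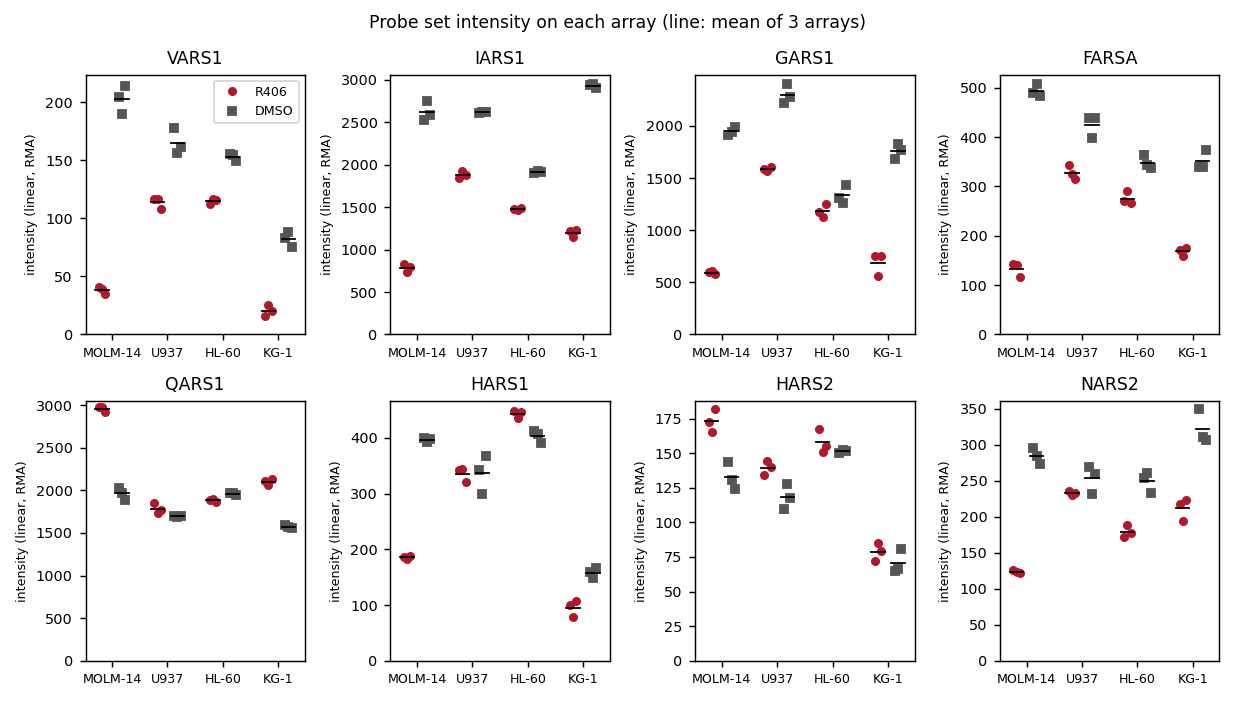
Intensity of 8 synthetase probe sets on every array (linear axis from 0), with R406 arrays as circles and DMSO arrays as squares in each line, and a bar for the mean of 3 arrays. VARS1, IARS1 and FARSA show R406 arrays below DMSO arrays in all 4 lines, and QARS1 shows R406 arrays above DMSO arrays in MOLM-14, U937 and KG-1.

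Promoters were read because the cytosolic genes moved together and many are known ATF4 targets. RefSeq (GRCh38.p14) gave windows from 250 bases before to 50 after a transcript start for 26 of the 29 measured genes. LARS1, VARS1 and YARS1 were not in that table. Both strands were searched for TGATGNAA, the letters that ATF4 binds together with C/EBP factors, and for CACGTG, the E-box bound by MYC with MAX. TGATGNAA stood in a window of 8 of the 26 genes (30.8%) and of 4.46% of the 27305 genes in the table, or 3.44% of those measured on the arrays. It was present in 7 of 15 cytosolic genes (46.7%) and 1 of 10 mitochondrial genes, YARS2. CACGTG was in 1 of the 26, IARS1, against 8.77% of genes in the table and 11.9% of those measured on the arrays. The motif never overlapped the E-box in these windows. The 36-base stretches below are shown because each holds a match in a gene of the family, each read in the direction that spells the motif, with the match in capitals.
AARS1: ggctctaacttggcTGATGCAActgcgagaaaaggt
CARS1: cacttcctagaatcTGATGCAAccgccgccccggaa
GARS1: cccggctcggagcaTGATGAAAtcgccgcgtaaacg
MARS1: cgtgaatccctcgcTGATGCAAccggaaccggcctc
NARS1: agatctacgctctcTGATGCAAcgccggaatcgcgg
TARS1: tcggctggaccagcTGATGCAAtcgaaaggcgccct
YARS2: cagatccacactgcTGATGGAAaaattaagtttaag

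In order, these stretches lie at chr16:70289672-70289707 (+), chr11:3057404-3057439 (+), chr7:30594831-30594866 (-), chr12:57488050-57488085 (-), chr18:57621801-57621836 (-), chr5:33440953-33440988 (-) and chr12:32756073-32756108 (-), where the sign is the strand printed. Counted from the transcript start, the match begins within 33 bases of it in CARS1, GARS1, MARS1, NARS1 and TARS1, and 187 and 197 bases before it in AARS1 and YARS2. The free base of the motif was C in 5 of the 6 cytosolic stretches shown, with GARS1 the exception. The 7 cytosolic genes with the motif had, in MOLM-14, a median log2 fold change of -1.14, and the 8 without it had -0.77. The same medians were -0.31 and -0.13 in U937, -0.12 and -0.10 in HL-60, and -0.77 and -0.66 in KG-1. LARS1, VARS1 and YARS1 (-1.12, -2.37 and -1.28 in MOLM-14) had no window and are in neither group. The difference between the groups was not tested. FARSA, which fell in all 4 lines, had neither motif in its window. These matches describe the letters of a window and were not tested as binding sites.

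Mitochondrial synthetases also fell, with a narrower range. In MOLM-14, 7 of 10 measured genes fell and 1 rose (median -0.60), and in KG-1, 8 fell and 0 rose by limma (median -0.53). In U937, 5 fell and 0 rose by limma (median -0.20), and in HL-60, 6 fell and 0 rose by limma (median -0.24). At an unadjusted p under 0.05, 0 were higher in KG-1, 1 in U937 and 0 in HL-60. Of all genes, 25.0% were called lower in MOLM-14, 20.9% in KG-1, 5.43% in U937 and 7.97% in HL-60. In MOLM-14, 31.1% were called higher. Medians over all genes were 0.068, 0.020, 0.0027 and -0.0029 in MOLM-14, KG-1, U937 and HL-60. The asparagine enzyme gene NARS2 had intensities of 127, 123 and 121 on the R406 arrays, against 296, 285 and 273 on the DMSO arrays in MOLM-14, a change of -1.20 ± 0.073 (limma adjusted p = 2.25e-12). In HL-60 it was at 172, 189 and 178 on the R406 arrays, against 253, 261 and 233 on the DMSO arrays, and its -0.47 ± 0.073 was the largest fall of any measured synthetase in that line (limma adjusted p = 7.88e-05). NARS2 also fell in KG-1 (-0.60 ± 0.073) and did not pass the test in U937 (-0.12 ± 0.073). FARS2, the phenylalanine enzyme of mitochondria, read 66.6, 67.8 and 72.2 on the R406 arrays, against 91.6, 103 and 90.6 on the DMSO arrays in HL-60. Its change there was -0.46 ± 0.090, beside -0.60 ± 0.090 in MOLM-14 and -0.75 ± 0.090 in KG-1. These are values of the chosen FARS2 probe set. The next brightest gave -0.16 in MOLM-14 and -0.27 in HL-60, neither called, and was called lower in KG-1 (-0.36). The dimmest gave 0.19 in MOLM-14, 0.057 in HL-60 and 0.015 in KG-1 and was not called.

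LARS2, IARS2 and WARS2, for leucine, isoleucine and tryptophan, were called lower in all 4 lines. LARS2 was at 93.2, 88.4 and 86.9 on the R406 arrays, against 187, 202 and 191 on the DMSO arrays in MOLM-14, with groups well apart. Its log2 fold changes were -1.10 in MOLM-14, -0.24 in U937, -0.27 in HL-60 and -0.89 in KG-1. WARS2 changed by -0.59, -0.34, -0.37 and -0.56 in the same order, and IARS2 by -0.42, -0.19, -0.19 and -0.36. In U937, LARS2 read 180.3, 190.0 and 195 on the R406 arrays, against 229, 216 and 225 on the DMSO arrays. IARS2 read 1208, 1287 and 1212 on the R406 arrays, against 1427, 1388 and 1424 on the DMSO arrays. The cytosolic NARS1, the weakest call of its class there, read 2121, 2175 and 2100.4 on the R406 arrays, against 2489.6, 2342 and 2411 on the DMSO arrays. None of these 3 genes had overlapping groups, and 15.8% of all genes had R406 arrays wholly below DMSO arrays in U937. In HL-60, LARS2 read 162, 155 and 154 on the R406 arrays, against 186, 187 and 195 on the DMSO arrays. IARS2 read 765, 717 and 769 on the R406 arrays, against 839, 862 and 869 on the DMSO arrays. The threonine enzyme gene TARS2, at -0.26 ± 0.083 there, read 104, 100.2 and 114 on the R406 arrays, against 127, 128 and 126 on the DMSO arrays. Here too the R406 arrays lay below the DMSO arrays for all 3 genes, as they did for 16.9% of all genes in HL-60. In KG-1, IARS2 read 646, 589 and 623 on the R406 arrays, against 789.6, 814 and 785 on the DMSO arrays. The IARS2 calls in U937 and HL-60 ended when any array of the line was left out. SARS2, for serine, read 33.2, 36.3 and 41.0 on the R406 arrays, against 55.0, 51.4 and 49.8 on the DMSO arrays in U937, a change of -0.49 ± 0.10 (limma adjusted p = 0.00271). It was called in MOLM-14 and KG-1 too and did not pass in HL-60. YARS2 fell in MOLM-14, U937 and KG-1, and TARS2 in HL-60 and KG-1. The YARS2 call in U937 and the TARS2 call in HL-60 ended when most single arrays of the line were left out. The TARS2 call also ended with quantile normalization. The RARS2 probe set lay at 3.78 to 5.17 on every array, near the lowest intensities measured, and was called in no line. With any array of U937 left out, 2 or 3 mitochondrial genes in place of 5 were called lower there.

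HARS2 was the mitochondrial gene that rose. In MOLM-14 it had intensities of 172, 165 and 182 on the R406 arrays, against 144, 131 and 124 on the DMSO arrays, so the 3 R406 arrays lay above the 3 DMSO arrays (0.38 ± 0.084, limma adjusted p = 4.79e-04). Its cytosolic counterpart HARS1 was at 187, 182 and 188 on the R406 arrays, against 399.6, 392 and 397 on the DMSO arrays, a change of -1.09 ± 0.088 (limma adjusted p = 2.66e-10). In KG-1, HARS1 was at 100.4, 78.4 and 106 on the R406 arrays, against 159.9, 148 and 166 on the DMSO arrays, a change of -0.74 ± 0.088 (limma adjusted p = 2.50e-07). HARS2 there was at 71.8, 85.2 and 79.2 on the R406 arrays, against 65.1, 66.1 and 80.4 on the DMSO arrays, with overlapping arrays and 0.16 ± 0.084 (limma adjusted p = 0.138). In U937 HARS2 had R406 arrays above its DMSO arrays without passing the test (0.24 ± 0.084, limma adjusted p = 0.0763). Such an order of arrays was found in 18.2% of all genes there. Neither gene passed in HL-60, at 0.14 ± 0.088 for HARS1 and 0.057 ± 0.084 for HARS2.

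HARS1 and HARS2 are neighbours that are read in opposite directions. Their annotated starts, on chromosome 5 of GRCh38.p14, lie 85 bases apart, at 140691370 on the minus strand and 140691455 on the plus strand. The promoter windows share 184 bases, chr5:140691321-140691504, shown on the plus strand with the first base of HARS1 and then that of HARS2 in capitals. The stretch is shown because the bases between the capitals precede a gene that fell and a gene that rose in MOLM-14. The bases outside the capitals lie after the start of HARS1 or of HARS2.
HARS1 and HARS2: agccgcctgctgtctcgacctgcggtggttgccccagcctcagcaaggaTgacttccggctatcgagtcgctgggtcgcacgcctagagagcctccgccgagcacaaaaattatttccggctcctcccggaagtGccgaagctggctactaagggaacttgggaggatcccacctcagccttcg

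Neither TGATGNAA nor CACGTG was in either window. Each gene is measured by a single probe set.

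**Figure D3:**
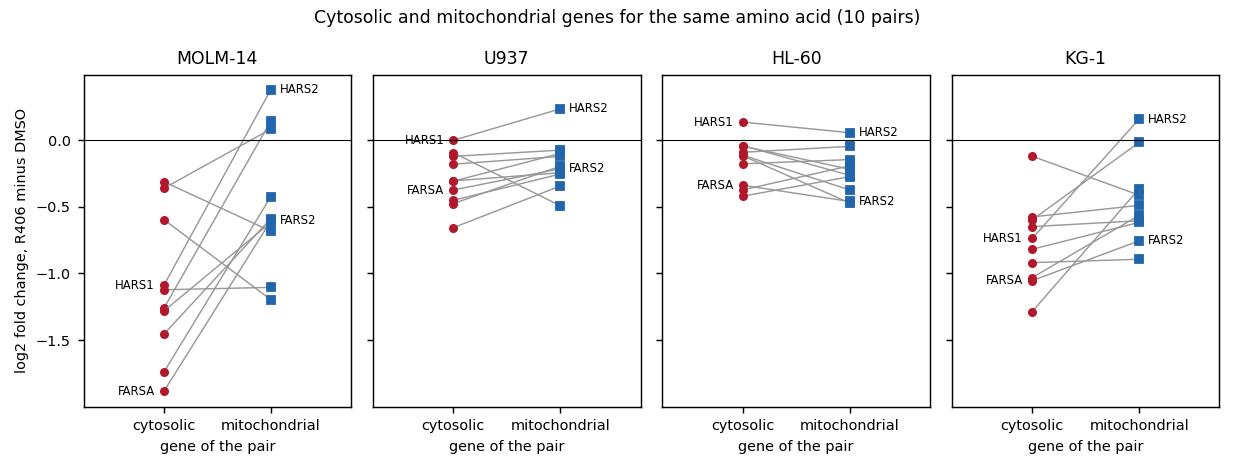
Log2 fold changes, R406 minus DMSO, of the 10 amino acids with a measured cytosolic gene (left, circles) and mitochondrial gene (right, squares), joined by lines, in each line. In MOLM-14 most lines slope up to the right, and the HARS1 to HARS2 line crosses 0.

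For 10 amino acids both genes were measured. The cytosolic gene had the lower log2 fold change in 8 of 10 pairs in MOLM-14 and in 9 of 10 in U937. In KG-1 it did so in 9 of 10 pairs and in HL-60 in 4 of 10. The pairs that ran the other way in MOLM-14 were asparagine (NARS1 -0.60, NARS2 -1.20) and serine (SARS1 -0.31, SARS2 -0.68). The serine pair kept this order in all 4 lines. The arginine pair says little, because the RARS2 probe set lies at the lowest intensities and could hardly show a fall. Without it, a choice made after the values were seen, the counts out of 9 pairs were 7 for MOLM-14, 8 for U937, 3 for HL-60 and 8 for KG-1. The threonine genes gave -0.36 for TARS1 and 0.085 for TARS2, and only TARS1 passed. The difference within a pair was not tested, and the 2 probe sets of a pair are compared here by their changes and not by their levels. In every pair the cytosolic probe set was the brighter, as with WARS1 (mean intensity 400) and WARS2 (72.5). The 1 added to each intensity matters mainly at the lowest intensities, such as those of RARS2. LARS1 (188) and LARS2 (184) had nearly equal mean intensities. The order within a pair may partly reflect signal level, which was not tested.

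Enzymes inside and outside the multi-synthetase complex both fell. Of the 7 measured inside it (EPRS1, IARS1, KARS1, LARS1, MARS1, QARS1 and RARS1), 6 fell and 1 rose in both MOLM-14 and KG-1, at medians of -1.12 and -0.72. Of the 11 cytosolic enzymes outside it, 10 fell in each of those lines, at medians of -1.28 and -0.77. In U937, 4 of the 7 and 8 of the 11 fell, and in HL-60, 3 of the 7 and 2 of the 11. Over all genes, 25.0% were called lower in MOLM-14, 20.9% in KG-1, 5.43% in U937 and 7.97% in HL-60. The scaffold gene AIMP1 fell in KG-1, with 385, 393 and 386 on the R406 arrays, against 494, 501 and 503 on the DMSO arrays (-0.36 ± 0.065, limma adjusted p = 6.29e-05). In MOLM-14 it read 870.3, 948 and 832 on the R406 arrays, against 828, 799.9 and 902 on the DMSO arrays, which overlap (0.066 ± 0.065, limma adjusted p = 0.411). Its dimmer probe set gave -0.96 in MOLM-14 (limma adjusted p = 1.13e-08), so the direction for AIMP1 in this line differs between its probe sets. Over the 10 genes with several probe sets, 29 of 52 further values were called the same way as the chosen probe set and 0 the opposite way.

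Of the 12 synthetases listed as ATF4 targets, 11 fell in MOLM-14, 10 in U937, 3 in HL-60 and 11 in KG-1, with medians of -1.13, -0.31, -0.15 and -0.80. Among the 6 other cytosolic genes (FARSA, HARS1, KARS1, QARS1, RARS1 and VARS1), 5 fell in MOLM-14, 2 in U937, 2 in HL-60 and 5 in KG-1, with medians of -1.18, -0.13, -0.13 and -0.67. In the same order of lines, 25.0%, 5.43%, 7.97% and 20.9% of all genes were called lower. The ATF4 transcript itself was called in U937 (-0.68 ± 0.059, limma adjusted p = 1.26e-07) and in no other line. Its log2 fold changes were -0.081 in MOLM-14, -0.094 in HL-60 and -0.023 in KG-1. ASNS, the asparagine synthetase gene and a standard ATF4 target, fell in all 4 lines, with -2.20 in MOLM-14, -0.63 in U937, -0.22 in HL-60 and -0.72 in KG-1.

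Averaged over the 4 lines with equal weight, 26 of the 29 genes fell and 2 rose, against 24.0% of all genes called lower and 29.1% higher for the mean (53.1% in either direction). The 2 that rose were QARS1 (mean effect 0.26, limma adjusted p = 8.00e-09) and HARS2 (0.21, limma adjusted p = 1.88e-04). HARS2 had a positive effect in 4 of 4 lines and QARS1 in 3 of 4. Among the chosen probe sets, the lowest mean effects were those of VARS1 (-1.32 ± 0.054), IARS1 (-0.97 ± 0.028), GARS1 (-0.95 ± 0.043) and FARSA (-0.91 ± 0.038). Each was negative in 4 of 4 lines. The dimmer VARS1 probe set gave smaller falls, with -0.55 in MOLM-14, -0.30 in U937, -0.095 in HL-60 and -0.57 in KG-1. Those in U937 and HL-60 were not called. Called lower in each of the 4 lines were EPRS1, FARSA, IARS1, LARS1 and VARS1 of the cytosolic genes and IARS2, LARS2 and WARS2 of the mitochondrial ones, 8 of 29, against 1.79% of all genes. Only FARSA and IARS1 kept all 4 calls under every alternative processing that tested them. EPRS1, LARS1, LARS2 and WARS2 lost the U937 call under some alternatives, VARS1 the HL-60 call, and IARS2 both.

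The size of the effect differed between lines for 23 of the 29 genes by a moderated F test, against 54.9% of all genes. These were 17 of 18 cytosolic genes, 5 of 10 mitochondrial genes and AIMP1. By the chosen probe sets, the widest differences were in VARS1 (1.97 between MOLM-14 and HL-60), FARSA (1.55), GARS1 (1.54), IARS1 (1.37), WARS1 (1.35) and AARS1 (1.27, between MOLM-14 and U937), all on the log2 scale. The smallest adjusted p among these 6 was that of IARS1 (limma adjusted p = 2.35e-12). AARS1, for alanine, was at 312, 297 and 287 on the R406 arrays, against 798, 819 and 801 on the DMSO arrays in MOLM-14 and at 308, 299 and 311 on the R406 arrays, against 349, 340.2 and 339 on the DMSO arrays in U937. The change was -1.43 ± 0.071 in MOLM-14, against -0.16 ± 0.071 in U937, which did not pass the test. SARS1, HARS2, IARS2, RARS2, SARS2 and WARS2 did not pass the test of a difference between lines. In 16 of 18 cytosolic and 6 of 10 mitochondrial genes, both the MOLM-14 and the KG-1 effect lay below those of U937 and HL-60, an order found in 23.9% of all genes. Across the 29 genes, the MOLM-14 and KG-1 effects had a Pearson correlation of 0.901 (Spearman 0.893), against 0.694 over all genes, and the U937 and HL-60 effects 0.366 (Spearman 0.378), against 0.213. These correlations describe genes measured on the same arrays, which are not independent replicates.

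The lines differed in these transcripts without R406. Under DMSO, 26 of 29 genes differed between lines by the F test, against 68.1% of all genes. MOLM-14 had the highest DMSO level for 13 of those 26 and KG-1 the lowest for 14. The widest range was that of MARS1, with DMSO means of 1205 in MOLM-14, 748 in HL-60, 671 in U937 and 379 in KG-1. The HL-60 and U937 arrays of MARS1 overlapped, at 669.6 to 837 and 645 to 704. HARS1 stood at 403 ± 11.5 in HL-60, 396 ± 3.78 in MOLM-14, 336 ± 34.1 in U937 and 158 ± 9.37 in KG-1 (SD, n = 3 each), with the first 2 overlapping in their arrays. LARS1 was highest in HL-60 at 348 ± 15.3 and lowest in KG-1 at 138 ± 5.67 (n = 3 each). VARS1 averaged 203 in MOLM-14 and 82.4 in KG-1. TARS1 was at 1742 ± 113 in MOLM-14 and 718 ± 28.9 in HL-60 (n = 3 each). RARS1, YARS2 and RARS2 did not pass the test between lines.

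**Figure D4:**
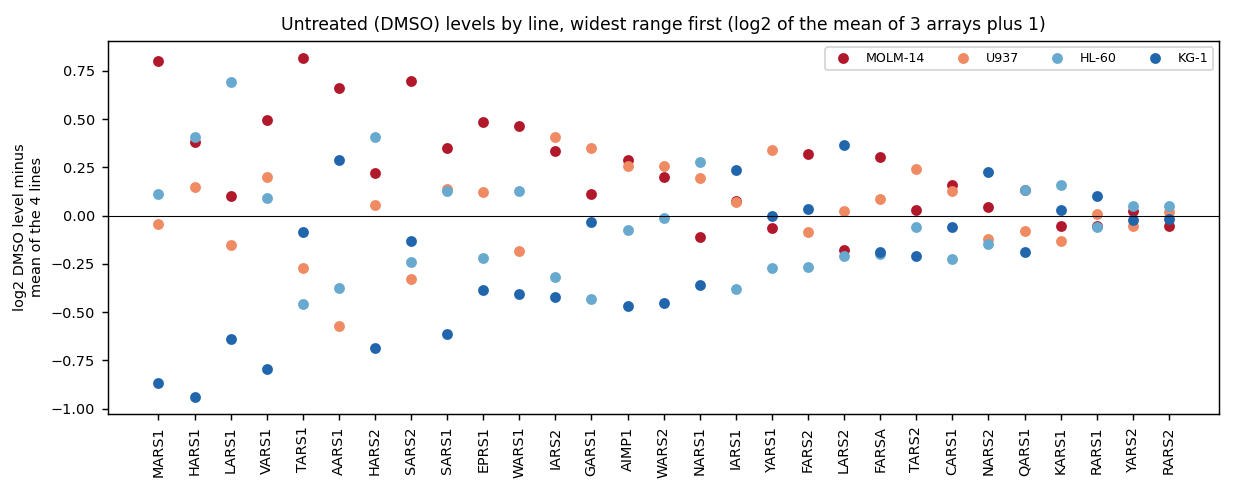
DMSO level of each gene in each line, as log2 of the mean of 3 arrays plus 1, minus the mean of the 4 lines, ordered by the width of the range. KG-1 is lowest for MARS1, HARS1, LARS1 and VARS1, and MOLM-14 is highest for MARS1, VARS1, TARS1 and AARS1.

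Many other genes of amino acid supply also fell. As a background, 25.0% of all genes were called lower in MOLM-14, 20.9% in KG-1, 5.43% in U937 and 7.97% in HL-60. Of 14 measured amino acid synthesis genes, 13 fell in MOLM-14 (median -1.09), and 13 fell and 1 rose in KG-1 (-0.90). In U937, 6 of these 14 fell, and in HL-60, 7 fell and 1 rose. CBS, which makes cystathionine from homocysteine, changed by -2.97 ± 0.13 in MOLM-14, and ALDH18A1, an enzyme of proline synthesis, by -2.22 ± 0.091. ASS1, of arginine synthesis, was the gene that rose in KG-1 (0.40), beside -2.07 in HL-60. Of 10 amino acid transporters, 9 fell in MOLM-14, 6 in U937, 2 in HL-60 and 6 in KG-1, and the arginine and lysine transporter SLC7A1 changed by -3.60 ± 0.078 in MOLM-14. In the ATF4 pathway list of 16 regulators and targets, 9 fell and 5 rose in MOLM-14. The share that rose was near that of all genes called higher there (31.1%). The pseudokinase gene TRIB3 changed by -2.03 in MOLM-14, against 0.83 in HL-60. Both values passed the test.

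Among genes of translation, the tRNA modification and processing list had 25 of 27 members lower in both MOLM-14 and KG-1, at medians of -0.72 and -0.54, 8 lower in U937 and 9 lower in HL-60. The pseudouridine synthase PUS7 changed by -3.65 ± 0.11 in MOLM-14 and the tRNA methyltransferase METTL1 by -2.87 ± 0.10. For this and the next lists, 25.0% of all genes were lower in MOLM-14, 20.9% in KG-1, 5.43% in U937 and 7.97% in HL-60. Of 37 mitochondrial ribosomal protein genes, 30 fell and 3 rose in MOLM-14 (-0.68), and 32 fell in KG-1 (-0.66), with 12 lower in U937 and 13 in HL-60. Of 20 cytosolic initiation factors, 13 fell and 4 rose in MOLM-14 (-0.53), 16 fell and 3 rose in KG-1, and 8 fell in U937 and 1 in HL-60. The 8 cytosolic elongation and release factors had a median of 0.018 in MOLM-14, with 3 lower and 1 higher, and EIF5A, which helps the ribosome through proline runs, changed by -1.80 ± 0.079. In the list of MYC and ribosome biogenesis, 16 of 19 fell in MOLM-14 (-2.34), 17 in U937 (-0.44), 16 in HL-60 (-0.39) and 18 in KG-1 (-1.66). MYC changed by -3.38 in MOLM-14, -0.80 in U937, -0.62 in HL-60 and -2.11 in KG-1. The mitochondrial cysteine enzyme CARS2, outside the 34 genes, fell in MOLM-14 (-0.55), HL-60 (-0.29) and KG-1 (-0.78). Of 21 interferon response genes, 9 were higher and 2 lower in MOLM-14, where 31.1% of all genes were called higher. In KG-1, 5 were higher and 2 lower, where 23.6% of all genes were called higher, so the share higher in KG-1 was near the background. In U937, 5 were higher and 0 lower by limma, where 6.12% of all genes were called higher. In HL-60, 3 were higher and 0 lower by limma, where 7.19% of all genes were called higher.

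**Figure D5:**
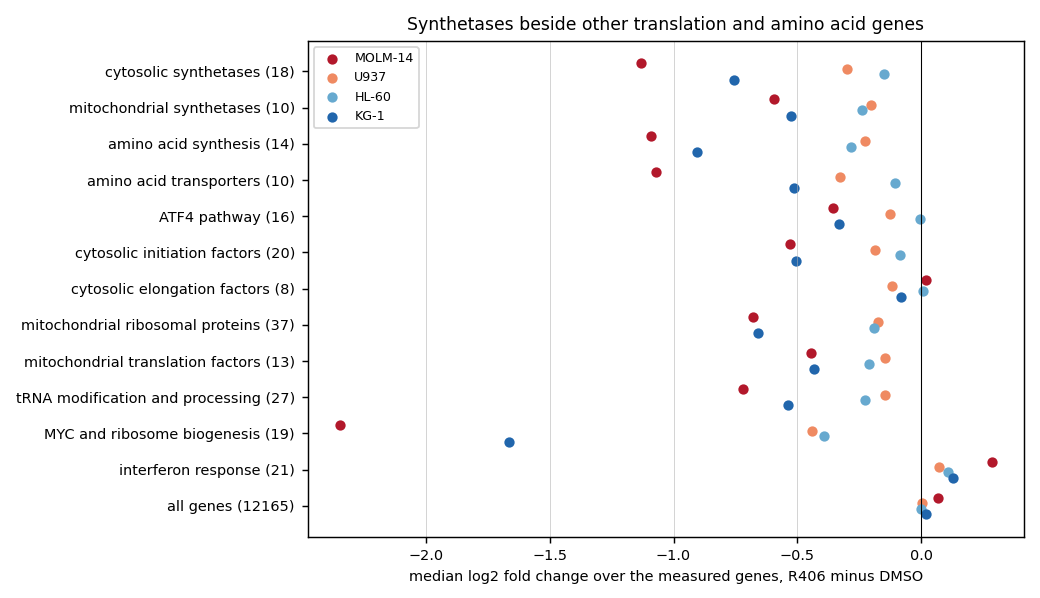
Median log2 fold change, R406 minus DMSO, of each gene list in each line, with the number of measured genes in brackets and all genes in the bottom row. The cytosolic synthetases lie at -1.13 in MOLM-14 and -0.76 in KG-1, while the elongation factors and all genes lie near 0.

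Measures of RNA quality and other cell types moved with treatment in some lines. The log2 ratio of 3' to 5' ACTB control probe sets averaged 0.824 ± 0.0088 with R406 and 0.484 ± 0.028 with DMSO in MOLM-14 (SD, n = 3 each; the 2-sided exact permutation test gave 0.1, its minimum for groups of 3). In KG-1 it averaged 0.852 ± 0.10 with R406 and 0.728 ± 0.039 with DMSO (n = 3 each, exact permutation p = 0.1), in U937 the difference was -0.039 (exact permutation p = 0.6) and in HL-60 -0.13 (exact permutation p = 0.1). The GAPDH ratio differed by 0.078 in MOLM-14 and by 0.10 in KG-1 (exact permutation p = 0.1 each), -0.0058 in U937 (exact permutation p = 1) and -0.011 in HL-60 (exact permutation p = 0.9). The 6 measured fibroblast and epithelial markers summed to 144 to 238 with R406 and 59.0 to 63.8 with DMSO in KG-1, where the collagen gene COL3A1 rose by 4.01, the other 5 did not pass the test, and none was at 0. The 5 T and NK cell markers summed to 307 to 342 with R406 and 175 to 198 with DMSO in MOLM-14, and to 517 to 654 with R406 and 314 to 319.5 with DMSO in KG-1, most of it from NKG7. In U937 they summed to 959 to 1016 with R406 and 831 to 859 with DMSO, and in HL-60 to 149 to 163 with R406 and 176 to 184 with DMSO. CD3D and CD3E were not called in any line. The part of these measures in the synthetase results was not tested.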

How the data were processed

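Intensities of 22277 probe sets were deposited by the authors as normalised values for 24 arrays, made with RMA per the submitters' processing notes, with no version given. Their range shows a linear scale. Of these, 62 control probe sets, 568 with several gene symbols and 1923 with none in the annotation used were set aside, leaving 12165 genes. A match by Entrez identifier to RefSeq symbols changed 0 names. Samples were grouped by the labels' line and treatment. One mean per group was fitted to log2 of the intensity plus 1 with limma 3.58.1 in R 4.3.3 (16 residual and 5.464 prior degrees of freedom), with no covariates and no filter. The fit was tested on simulated data. The members and gene lists were chosen with earlier results of these data known. Every member could be named, array values were given for the 5 lowest and 3 highest called members of a line, and context genes are the 4 with the smallest p of the mean effect in a list, plus MYC, ATF4 and ASNS. The brightest members were not singled out, because levels of different probe sets are not comparable. Samples that share a replicate number did not deviate together (correlations of -0.085 to 0.069), so no pairing was used. The sequence of 1 matching promoter stretch is not reported here. The number of arrays limits the precision. Alternatives were normalisation, pseudocount, filter, probe set rule, weights, block, single-line fits and each array left out.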

Additional observations from a re-analysis of the deposited data

Results flagged for a closer look

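The R406 effect differed between lines, by the moderated F test of the difference itself, for 23 genes. Values are those of the chosen probe sets, and the effects of the dimmer VARS1 probe set were smaller. The widest difference between 2 lines, on the log2 scale, was 1.97 for VARS1, 1.55 for FARSA, 1.54 for GARS1, 1.37 for IARS1, 1.35 for WARS1, 1.27 for AARS1, 1.23 for HARS1 and 1.17 for RARS1. It was 1.11 for YARS1, 1.08 for NARS2, 1.04 for MARS1, 0.86 for LARS2, 0.82 for LARS1, 0.65 for QARS1, 0.57 for TARS2 and 0.54 for FARS2. The rest had 0.54 for TARS1, 0.53 for NARS1, 0.47 for YARS2, 0.43 for AIMP1, 0.42 for EPRS1, 0.38 for KARS1 and 0.33 for CARS1. MOLM-14 had the lowest effect in 12 of these genes and KG-1 in 10, and HL-60 had the highest effect in 12.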

How the results depend on the processing

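Of 79 calls of a gene in a line, 66 held under every alternative that tested them. Without probe sets ending in _x_at or _s_at, which leaves 12 cytosolic and 8 mitochondrial genes, cytosolic genes called lower numbered 10 in MOLM-14, 4 in U937, 1 in HL-60 and 9 in KG-1, mitochondrial ones 3 in U937 and 3 in HL-60, 14 of 21 members differed in effect between lines and 17 of 21 between DMSO groups. MARS1, left with its dimmest probe set, lost its calls in U937 and KG-1 there, at -0.16 and -0.17. AIMP1 in MOLM-14 turned to -0.45 with averaged probe sets and to -0.96 with its other probe set, and was called higher with quantile normalization (1 call of the complex gene in each case). In U937, AIMP1 was called (1 call) with median centring, a pseudocount of 16, the dimmest genes left out, averaged probe sets, its other probe set, array weights, and trend with robust fitting. Mitochondrial genes called higher became 2 in MOLM-14 with median centring (RARS2), and 1 in U937 (HARS2) with a pseudocount of 16 and with array weights. Cytosolic genes called lower in HL-60 became 8 with a pseudocount of 16. With 1 array of the line left out at a time, U937 had 8 to 10 cytosolic and 2 or 3 mitochondrial genes lower. HL-60 had 5 cytosolic and 4 or 5 mitochondrial genes lower in the same way. Without KG-1 R406 replicate 2, left out after results were seen, the counts were 12 and 5 in U937 and 8 and 6 in HL-60. MOLM-14 had 16 and 7 and KG-1 16 and 8 throughout, with 1 to 2 mitochondrial genes higher in MOLM-14 and 0 to 1 in KG-1, and 22 to 26 members differed in effect between lines. With the replicate number as a block, the counts lower were 16 and 7 in MOLM-14, 12 and 4 in U937, 5 and 5 in HL-60, and 16 and 8 in KG-1, and the calls lost were those of IARS2 in U937 and HL-60; not every sample correlated best with its own number. Quantile normalization moved the median of all genes by at most 0.044 and median centring by at most 0.074 (log2). Changes of dim probe sets such as RARS2 are limited by signal near the lowest intensities.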
